A study of Mus musculus with 4 samples.

Results

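The TCF1 sites of Sox13lo γδ thymocytes were set against those of CD4 CD8 double-positive (DP) thymocytes by taking the 10000 best-scored peaks of each list on chromosomes 1 to 19, 20000 of the 143547 peaks of the series. A peak was called shared when it overlapped any peak of the whole other list by 1 bp or more, and restricted to its own list otherwise. The series was designed to ask where TCF1 sits on chromatin in cells entering effector programming. Both populations were C57BL/6. The Sox13lo cells were γδ thymocytes with CD24 and low or no cyan fluorescence, from mice that lacked TCRβ and carried an ECFP reporter knocked into 1 Sox13 allele. The DP cells came from wild-type mice, so genotype differs along with cell type and the 2 cannot be told apart. Sox13hi γδ thymocytes, the cells of high reporter signal from the same genotype as Sox13lo, gave a list that the choice of sites did not use, and it serves below as another readout. With 1 library per population there is no replicate spread, and the populations are described without a test.

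TCF1, encoded by Tcf7, is a transcription factor of the high mobility group family that binds DNA through its HMG box and acts with β-catenin or with Groucho-family corepressors. It is needed for T lineage commitment and for the survival of DP thymocytes, αβ lineage cells with both CD4 and CD8 on their surface. SOX13, another HMG-box protein, marks a subset of γδ thymocytes that gives rise to cells producing IL-17. γδ T cells carry a receptor made of γ and δ chains and leave the αβ path before the DP stage.

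The lists were of unequal length, and that bears on every share below. On chromosomes 1 to 19 the Sox13lo list held 10394 peaks, so its best 10000 were 96.2% of it. The DP list held 85669, so its best 10000 were 11.7%. The Sox13hi list, used whole as a readout, held 40156. The median width of all its peaks was 100 bp, against 350 bp in the Sox13lo list and 200 bp in the DP list. The last Sox13lo peak kept had a score of 8.89 and the first left out the same score. In the DP list both were 52.1, with 235 peaks tied at that value, of which 151 were kept by chromosome order. Scores are the authors' own values and serve here only to order the peaks of a list. Median scores were 35.8 in the Sox13lo, 25.4 in the DP and 7.90 in the Sox13hi list. Scores of different lists that are printed together below are therefore not compared. Read depth is unknown, and a restricted site is one without a called peak in the other list, not one shown to be unbound. Intervals are 95% Wilson intervals for counting error only, and neighbouring peaks are not independent. Positions are on mm9. Sites are named by position, because the gene table at hand was on another build, and the populations were not checked at Cd4 and Cd8a, the coreceptor genes that define DP cells. Peak lists do not measure expression in any case.

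About the same number of Sox13lo sites were shared with DP cells as were restricted, while most DP sites were restricted. Of the best Sox13lo peaks, 5176 overlapped a DP peak, 51.8% of the 10000 (50.8 to 52.7), and 4824 did not. Of the best DP peaks, 2768 overlapped a Sox13lo peak, 27.7% (26.8 to 28.6), and 7232 did not. These counts hold for the rule and the list lengths used here. With both lists limited to their best 10000, 27.9% of Sox13lo and 27.7% of DP peaks were shared, and the directions are then nearly equal by construction. The unequal shares of the whole-list comparison are not read as a difference between the populations, since list length and population cannot be told apart.

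TCF1 sites with the best scores were mostly common to both populations, and sharing fell with rank in both lists. In the first 1000 ranks 92.4% of Sox13lo peaks (90.6 to 93.9) were in the DP list, and in ranks 9001 to 10000 18.6% (16.3 to 21.1) were. For DP peaks the corresponding shares were 82.7% (80.2 to 84.9) and 9.70% (8.02 to 11.7). The fall was steepest early in the DP list, to 53.6% in ranks 1001 to 2000 and 33.0% in ranks 2001 to 3000. Even so, 173 of the first 1000 DP peaks had no Sox13lo peak, and 76 of the first 1000 Sox13lo peaks had no DP peak.

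**Figure D1:**
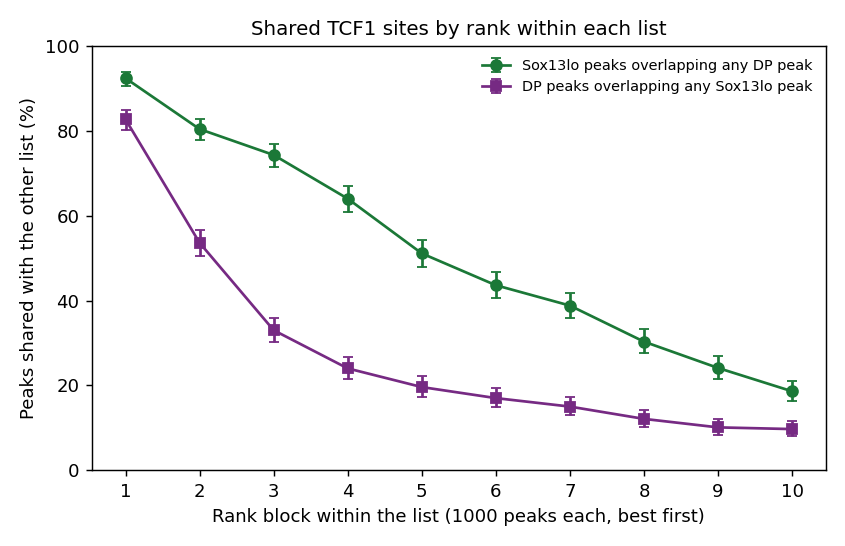
Share of peaks (%) that overlap the other list, for each block of 1000 ranks of the Sox13lo list (circles) and the DP list (squares), with 95% Wilson intervals. Both series fall from the best block (92.4% and 82.7%) to the last (18.6% and 9.70%).

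Shared sites were also wider than restricted ones. The median width of shared Sox13lo peaks was 450 bp and that of Sox13lo-restricted peaks 300 bp, and their median scores were 50.8 and 26.3. In the DP list the widths were 450 bp for shared and 350 bp for restricted peaks, and the scores 92.1 and 62.8. A wide peak overlaps another more easily, so these widths are a description of the classes and support nothing. Within the first 1000 ranks the medians were closer in the Sox13lo list, 750 bp for shared and 725 bp for restricted peaks, and farther apart in the DP list, 600 bp and 450 bp.

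The Sox13hi list, which had no part in choosing the sites, separated the classes. DP-restricted sites were almost never found in Sox13hi cells: 92 of 7232 overlapped a Sox13hi peak, 1.27% (1.04 to 1.56). Of the shared sites of the DP list, 2185 of 2768 did, 78.9% (77.4 to 80.4), against 22.8% of all 10000 best DP peaks. In the Sox13lo list the contrast was smaller, with 76.7% (75.5 to 77.8) of shared sites and 45.9% (44.5 to 47.3) of Sox13lo-restricted sites in the Sox13hi list, against 61.8% of all 10000. Sox13hi and Sox13lo cells were sorted apart by reporter signal, so the Sox13hi list is not a replicate of Sox13lo. They share a genotype that DP cells lack, so agreement of the 2 γδ lists is also part of the DP contrast.

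The contrast among DP sites was present at every rank. In the first 1000 DP ranks, 708 of 827 shared sites and 1 of 173 DP-restricted sites were in the Sox13hi list, 85.6% (83.1 to 87.8) and 0.578% (0.102 to 3.20). In the last 1000 the shares were 73.2% (63.6 to 81.0) and 1.77% (1.09 to 2.86). With shared sites weighted to the ranks of the restricted ones, a calculation chosen after the data were seen, 75.9% of shared DP sites were in the Sox13hi list. Weighted to ranks and widths together, 66.5% were.

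Among Sox13lo sites, presence in the Sox13hi list fell with rank in both classes, and shared sites stayed above restricted ones in each block. It fell from 94.7% (93.1 to 96.0) to 31.7% (25.5 to 38.7) for shared sites and from 82.9% (72.9 to 89.7) to 25.8% (22.9 to 28.9) for Sox13lo-restricted sites. The intervals of the 2 classes overlapped in the last block. At the ranks of the restricted sites 59.2% of shared sites were in the Sox13hi list, and at their ranks and widths 56.3%, against the 45.9% of restricted sites.

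**Figure D2:**
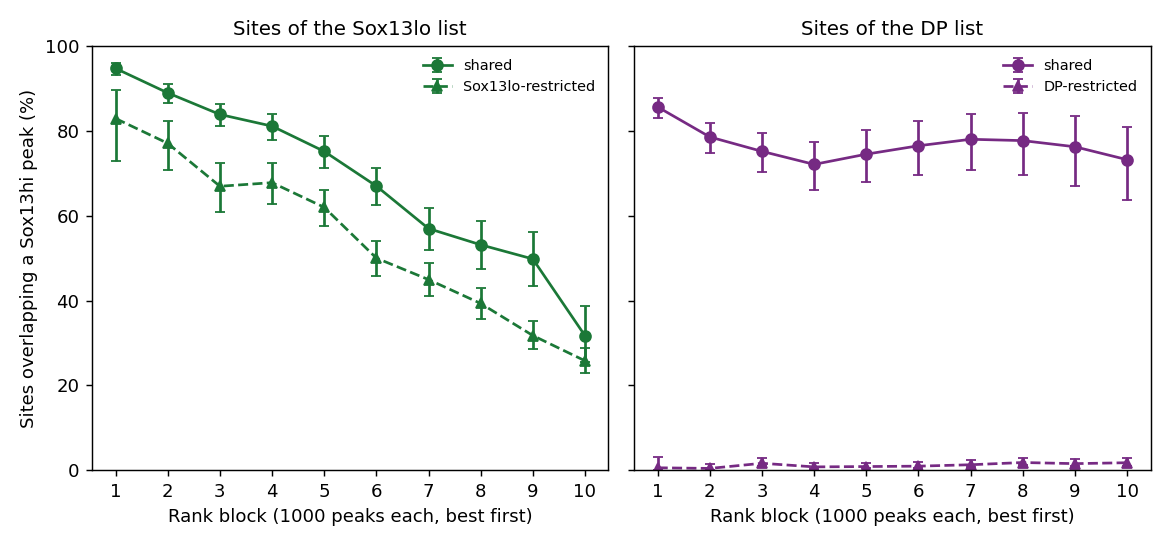
Share of sites (%) that overlap a Sox13hi peak, by block of 1000 ranks, for shared (solid) and restricted (dashed) sites of the Sox13lo list (left) and the DP list (right), with 95% Wilson intervals. DP-restricted sites lie under 2% in every block, and shared DP sites between 72.1% and 85.6%.

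Taken by presence in the 3 lists, the best DP sites fell mainly into 2 kinds. The first, 7140 sites or 71.4% (70.5 to 72.3), was found in neither γδ list, and the second, 2185 sites or 21.9% (21.1 to 22.7), in both. A further 583 were shared with Sox13lo only and 92 with Sox13hi only. The Sox13lo sites were more evenly spread: 3969 were in all 3 lists, 1207 in the DP list but not in Sox13hi, 2215 in Sox13hi but not in DP, and 2609 in neither. Those found in neither had a median rank of 7572 and a median width of 250 bp, against 2616 and 500 bp for those in all 3. The Sox13lo sites shared with Sox13hi alone and with DP alone stood at close median ranks, 5640 and 5703.

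The best shared site outside the extreme scores, ranked by the worse of its ranks in the Sox13lo and DP lists, was at chr6:90259151-90259900. Its score was 328 in Sox13lo cells (rank 16), 461 in DP cells (rank 19) and 41.9 in Sox13hi cells (rank 1001). The next was a 1550 bp peak at chr13:60277151-60278700, with scores of 300 in Sox13lo (rank 19), 473 in DP (rank 17) and 28.2 in Sox13hi cells (rank 2328). Another, at chr16:17222201-17222550, was narrower at 350 bp. It stood at rank 27 in Sox13lo, 34 in DP and 22 in Sox13hi cells. All 10 best shared sites were in the Sox13hi list. In the first 1000 ranks 94.7% of shared Sox13lo sites and 85.6% of shared DP sites were. The Sox13hi ranks of the 10 ran from 22 to 7705. The lowest of these was the site at chr10:79197701-79198900, which was at rank 34 in Sox13lo and 39 in DP cells.

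Ranks of shared sites were related in the 2 lists but with wide scatter. Over the 5176 shared Sox13lo sites the rank correlation with the best overlapping DP peak was 0.47, a description over sites that share libraries. The DP peaks so matched had a median rank of 7907, with quartiles of 1786 and 33022. In 2382 cases the DP peak was outside the best 10000, so 46.0% of the sharing seen from the Sox13lo side rested on lower-scored DP peaks. From the DP side, 2765 of 2768 matched Sox13lo peaks were among the best 10000, which is nearly the whole list.

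Some sites of high rank in one population had a weak peak in the other. Of the 924 shared sites among the first 1000 Sox13lo ranks, 432 had a DP peak in the first 1000 DP ranks and 47 had one in the lower 50% of the DP list. The best of these 47 was at chr2:27356751-27357900, with rank 49 in Sox13lo, 11 in Sox13hi and 53916 in DP cells. The second, at chr14:56380801-56381650, stood at 144, 1121 and 52261 in the same order. In the other direction, 28 of the 827 shared sites among the first 1000 DP ranks had a Sox13lo peak in the lower 50% of that list. The first was at chr13:6248451-6249150, with rank 195 in DP and 5208 in Sox13lo cells, just past the middle of the Sox13lo list. Of the 47, 44 were in the Sox13hi list, or 93.6% (82.8 to 97.8), near the 94.7% of all shared sites in the first 1000 Sox13lo ranks. Of the 28, 8 were, or 28.6% (15.3 to 47.1), where all shared sites in the first 1000 DP ranks gave 85.6%. The 28 were picked for a low Sox13lo rank, and presence in the Sox13hi list fell with that rank. It was 67.0% for shared Sox13lo sites at ranks 5001 to 6000 and 31.7% at ranks 9001 to 10000. The 85.6% is not limited to such ranks, so nothing is read from the lower share of the 28. The sets of 47 and 28 were chosen after the ranks were seen.

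**Figure D3:**
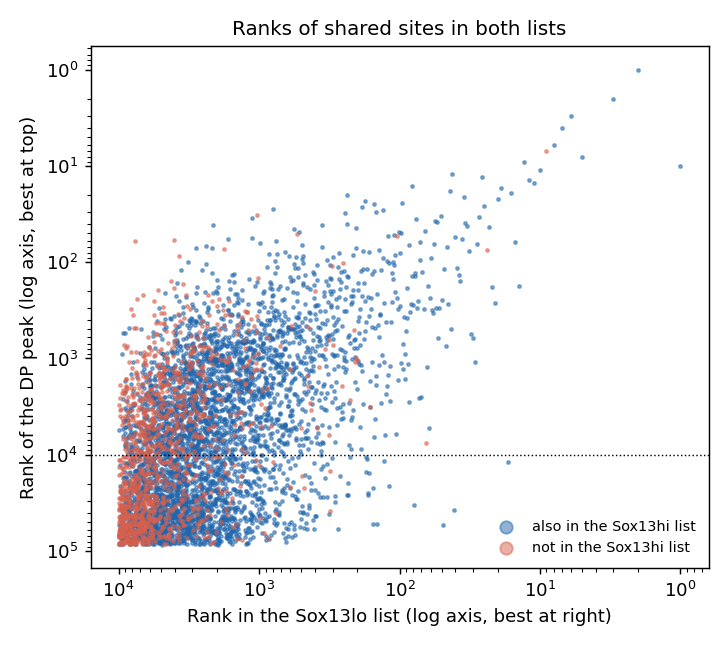
Rank of each of the 5176 shared Sox13lo sites in its own list (log axis, best at right) against the rank of the best DP peak it overlaps (log axis, best at top); blue sites are also in the Sox13hi list and red ones are not. The dotted line marks DP rank 10000, and 2382 sites lie below it.

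Of the 10 best Sox13lo-restricted sites outside the extreme scores, at ranks 18 to 270, 8 were in the Sox13hi list. This is close to the 82.9% of all Sox13lo-restricted sites in the first 1000 ranks, and 94.7% of shared sites there were in that list. The first, at chr5:105356451-105357750, had a score of 304 in Sox13lo and 207 in Sox13hi cells (rank 12), and the nearest DP peak was 42.6 kb away. The site at chr17:36621501-36622050 had 202 in Sox13lo (rank 68) and 236 in Sox13hi cells (rank 10), with a DP peak 1700 bp away.

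Of the same 10 sites, 4 had a DP peak within 1000 bp. Over all Sox13lo-restricted sites this held for 18.4% (11.3 to 28.6) in the first 1000 ranks and 14.0% (11.8 to 16.6) in the last 1000. The site at chr2:27352351-27353650 (score 154, rank 394 in Sox13hi) lay 4100 bp from a DP peak, beside the shared site at 27356751 named above. A site at chr6:140572101-140572900 (rank 260 in Sox13lo, 155 in Sox13hi) had a DP peak 450 bp away. So did the site at chr15:76009801-76010600, at rank 143 in Sox13lo and 2946 in Sox13hi cells. The 2 of the 10 missing from Sox13hi were at chr8:72854651-72855350 and chr5:36021601-36022250. The first had a Sox13hi peak 0.65 kb away and a DP peak 0.6 kb away. For the second the nearest Sox13hi peak was 125 kb away and the nearest DP peak 40.4 kb away.

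None of the 10 best DP-restricted sites, at DP ranks 46 to 202, overlapped a Sox13hi peak, beside 0.578% of all DP-restricted sites in the first 1000 ranks. The site at chr9:41332101-41332650 had a score of 260 (rank 110), with no Sox13lo peak within 366 kb and a Sox13hi peak 15.7 kb away. The site at chr17:10918651-10919650, 1000 bp wide, had a score of 242 and lay 336 kb from the nearest Sox13lo peak and 4.70 kb from the nearest Sox13hi peak. The site at chr1:81710051-81710500 had a score of 228, with distances of 290 kb and 6.35 kb. The site at chr4:154353901-154354450 (score 218) was the closest of the 10 to both γδ lists, at 3.75 kb from Sox13lo and 3.85 kb from Sox13hi peaks. The top-ranked of the 10, a 200 bp peak at chr9:3001551-3001750 with a score of 341, lay near the start of the assembled chromosome and 18.6 kb from a Sox13lo peak. That Sox13lo peak, at chr9:3020301-3020650, is one of the extreme scores described below (745, rank 9). The DP peak it overlaps is another (1837, rank 7).

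The 92 DP-restricted sites found in Sox13hi cells had a median rank of 7011 in the DP list, and the Sox13hi peaks they overlapped had a median rank of 19568 of 40156, near the middle of that list. For shared DP sites in the Sox13hi list the median Sox13hi rank was 2310, and their median DP rank was 1892, so the classes differ in DP rank too. The best of the 92 was a 1550 bp site at chr4:113832851-113834400, at DP rank 702 and Sox13hi rank 7420, with no Sox13lo peak within 244 kb.

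Few DP-restricted sites had a γδ peak just beside them. Of DP-restricted sites 31, or 0.429%, lay within 500 bp of a Sox13lo peak and 56, or 0.774%, within 1000 bp. Of the 7140 outside the Sox13hi list 256, or 3.59%, lay within 1000 bp of a Sox13hi peak. Among sites outside the Sox13hi list that share was 12.3% for shared DP, 11.8% for shared Sox13lo and 11.9% for Sox13lo-restricted sites. The median distance from a DP-restricted site to a Sox13lo peak was 120 kb. On the Sox13lo side 520 restricted sites, 10.8%, lay within 500 bp of a DP peak, and the median distance was 7.60 kb. The DP list is the longer, and a longer list by itself leaves shorter distances, so the 2 medians are not compared. Distances at equal list length were not computed. Counting gaps of up to 500 bp as shared gave 57.0% for Sox13lo and 28.0% for DP peaks.

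Restricted sites of the populations were placed differently relative to the shared ones. Sox13lo-restricted sites lay among shared Sox13lo sites, with 16.7% (15.6 to 17.7) within 10 kb of one, against 16.0% (15.0 to 17.0) of shared sites with another shared site that close. Their median distances were 78.7 and 88.1 kb. DP-restricted sites lay farther off: 2.48% (2.14 to 2.86) were within 10 kb of a shared DP site, against 9.54% (8.50 to 10.7) of shared sites, and the medians were 378 and 173 kb. To the nearest other DP-restricted site the medians were 110 kb from DP-restricted and 111 kb from shared sites. All of these distances are between peak midpoints within the best 10000 of 1 list. The rule places shared DP sites where the Sox13lo list has peaks, so the contrast is a description and not an independent result.

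**Figure D4:**
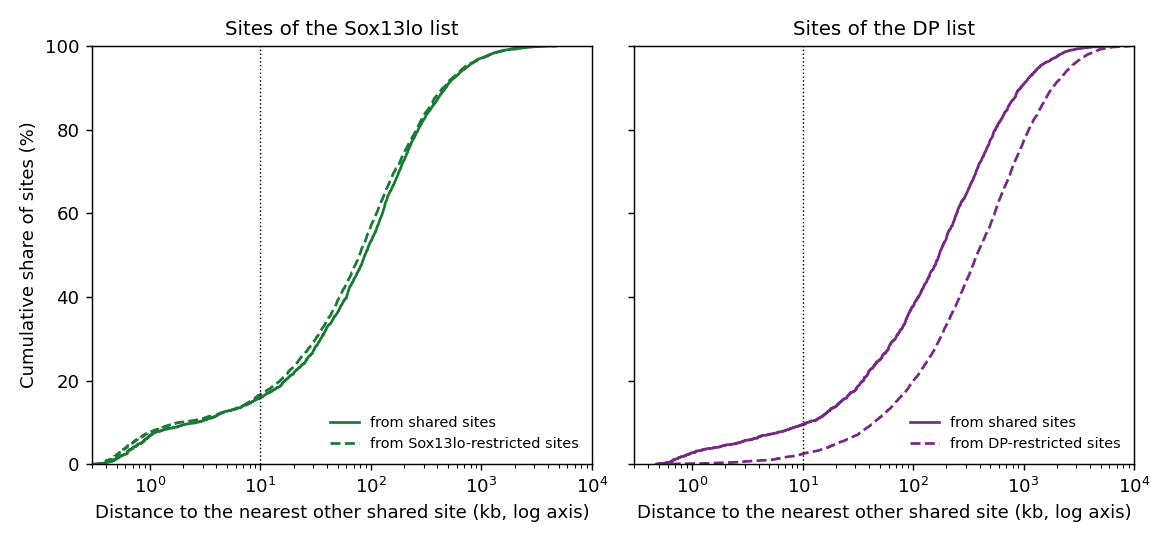
Cumulative share of sites (%) by distance to the nearest other shared site of the same list (kb, log axis), from shared (solid) and restricted (dashed) sites of the Sox13lo list (left) and the DP list (right); the dotted line is at 10 kb. The Sox13lo curves nearly coincide, and the DP-restricted curve lies to the right of the shared one, with medians of 378 and 173 kb.

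The densest stretch of Sox13lo peaks was on chromosome 10 between 79 and 81 Mb, which held 102 Sox13lo peaks, 20.2% of that chromosome's list. Of these, 44 were shared with DP and 58 restricted, where 48.2% of all best Sox13lo sites were restricted. Of the 58, 27 were in the Sox13hi list, near the 45.9% of all Sox13lo-restricted sites. The same stretch held 103 DP peaks, 2.28% of the DP peaks of chromosome 10, and 7 DP-restricted sites. On chromosome 8 the window from 73 to 74 Mb held 30 Sox13lo-restricted and 9 shared sites, the most Sox13lo-restricted sites of any of the 2416 windows of 1 Mb with a peak. It was picked for that count.

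DP-restricted sites reached at most 11 in a window, against at most 30 for the less numerous Sox13lo-restricted sites. They were present in 2275 of these windows, against 1613 for Sox13lo-restricted and 1327 for shared DP sites. They were also the most numerous class, which raises the number of windows reached. The window with 11 was on chromosome 2 from 171 to 172 Mb and held 1 Sox13lo peak and 6 Sox13hi peaks. It includes one of the 10 best DP-restricted sites, at 171830701 to 171831050, with a score of 230. Among 455 windows with 5 or more DP-restricted sites, 58 had no Sox13lo peak. How many of all 2416 windows lacked a Sox13lo peak was not computed, so the 58 are only a description. The fullest of the 58 were on chromosome 1 from 126 to 127 Mb and on chromosome 12 from 90 to 91 Mb, each with 8 DP-restricted sites. The Sox13hi list had 11 peaks in the first of these windows and 20 in the second.

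The share of DP sites found in Sox13lo cells varied between chromosomes. It was highest on chromosome 7, with 231 of 594, 38.9% (35.1 to 42.9), and lowest on chromosome 14, with 90 of 471, 19.1% (15.8 to 22.9). Chromosome 16 was close to the lowest, at 19.7% (16.0 to 24.1), and chromosome 19 was second, at 34.8% (29.4 to 40.7). The Sox13lo list itself was uneven, with 760 peaks on chromosome 7 and 357 on chromosome 14, and its part in this range was not tested. Shares of Sox13lo sites found in DP cells covered a narrower range, from 47.1% (41.8 to 52.4) on chromosome 14 to 55.6% (50.9 to 60.2) on chromosome 12, with overlapping intervals. The extremes were picked from 19 chromosomes. DP-restricted sites in the Sox13hi list stayed between 0.571% and 2.30% on every chromosome.

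**Figure D5:**
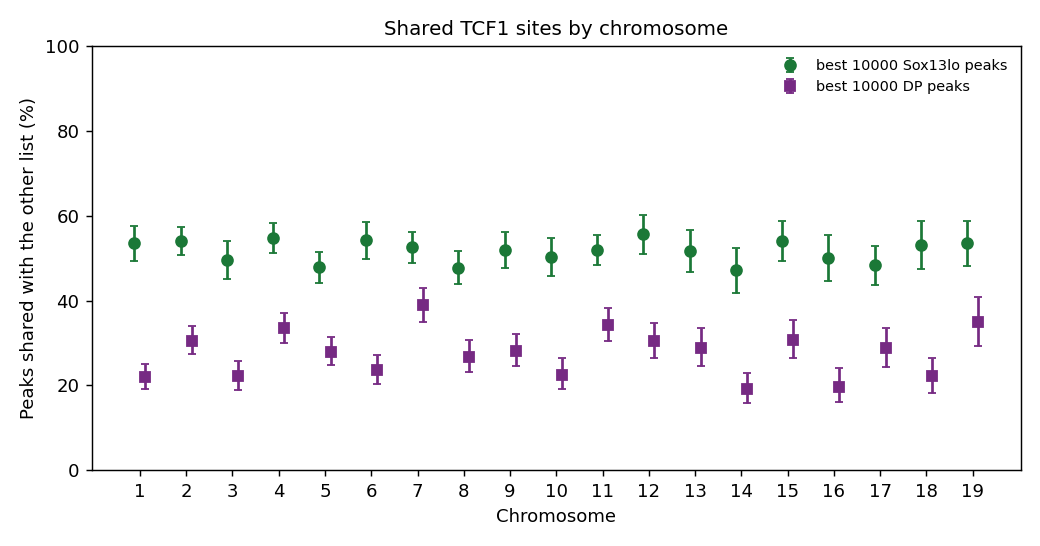
Share of the best 10000 peaks (%) of the Sox13lo list (circles) and the DP list (squares) that overlap the other list, by chromosome, with 95% Wilson intervals. DP shares run from 19.1% on chromosome 14 to 38.9% on chromosome 7, and Sox13lo shares from 47.1% to 55.6%.

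Extreme scores, over 20 times the median of a list, were nearly all shared. Whether these sites lie in repeats was not tested, and they are described as calls of the lists rather than as TCF1 binding. There were 15 in the DP list, all of them also in Sox13lo cells, and 9 in the Sox13lo list, of which 8 were in DP cells. In the first 1000 ranks 82.7% of DP peaks and 92.4% of Sox13lo peaks were shared, so frequent sharing was not particular to extreme scores. A single stretch of chromosome 17, from 39980951 to 39986050, held 4 of the 15 and 2 of the 9. The highest Sox13lo score, at chr6:103599051-103599450, was 10742 (300 times the list median). The DP peak it overlaps was at rank 10 of its own list, with a score of 775 (30.5 times the DP median). The exception that was not shared was at chr11:3093301-3093650, with a score of 2078, 38.0 kb from the nearest DP peak and 69.9 kb from the nearest Sox13hi peak. Without extreme scores the shared shares were 51.7% of Sox13lo and 27.6% of DP peaks.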

How the data were processed

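TCF1 immunoprecipitations of 3 thymocyte populations gave 1 peak list each. Cells were fixed in 1% formaldehyde after sorting, per the labels' protocols, and libraries made with 17 amplification cycles and fragments of 300 to 500 bp. The authors deposited each peak with a position and a score, on mm9 per the submitters' processing notes. How peaks were called and scored, and whether the input library (not analysed here) was used, is not given in the sources used here. Read depth is unknown. Peaks on chromosomes 1 to 19 were ranked by score, with ties taken by chromosome and start. Overlaps were computed in Python 3.11.15 (numpy 2.4.6, pandas 2.3.3, scipy 1.17.1). Those of 1 bp or more were checked against bedtools 2.31.1. The overlap code was also tested on copies of Sox13lo peaks, left in place or moved clear of every peak. That test held no partial overlaps and left out the gap criterion, so it cannot show errors there. Plots used matplotlib 3.10.9. Alternatives changed the overlap criterion, list length, peak width and extreme scores.

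The comparison and its lists were chosen with earlier results of these data known. The fixed rule named the 10 best sites of each class without extreme scores, and genes near them, genes of 13 lists and genes with most sites. The gene table used was on GRCm38, another build, so results on genes, promoters and motifs were not analysed here.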

Additional observations from a re-analysis of the deposited data

How the results depend on the processing

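The overlap shares were recomputed 16 times, of which 9 left the counting interval and 7 did not. Giving Sox13lo in DP first and DP in Sox13lo second, a reciprocal overlap of 50% gave 41.2 and 25.8%, midpoints within 200 bp gave 48.4 and 26.1%, and the best 5000 of each list gave 72.4 and 42.6%. Sox13lo peaks also moved to 27.9% with both lists limited to their best 10000, 53.5% with peaks resized to 500 bp, and 57.0% with gaps of up to 500 bp. Of 24 alternative shares in the Sox13hi list, 17 moved. In the order shared Sox13lo, Sox13lo-restricted, shared DP and DP-restricted, a reciprocal overlap gave 50.3, 32.4, 50.2 and 0.970%, and the best 10000 Sox13hi peaks gave 65.0, 32.7, 69.4 and 0.277%. With the best 5000 of each list the shares that moved were 86.0, 67.7 and 0.940% for shared Sox13lo, Sox13lo-restricted and DP-restricted sites. Midpoints within 200 bp moved shared Sox13lo sites to 73.6% and shared DP sites to 75.2%. Weighting to the ranks of restricted sites gave 59.2 and 75.9% for these 2, and to ranks and widths 56.3 and 66.5%. In each of these settings shared sites were in the Sox13hi list more often than restricted ones. The reciprocal criterion, and a shorter list to search in, can only remove overlaps by construction. Keeping the best 5000 raised both overlap shares, and sharing was more frequent at better ranks. It also raised the Sox13hi shares of shared Sox13lo and Sox13lo-restricted sites, and lowered that of DP-restricted sites from 1.27 to 0.940%. For other moves the cause was not tested. The gap criterion, kept ties, midpoints against Sox13hi, the shorter Sox13hi list, the weighting and the Sox13hi shares without extreme scores were chosen after the data were seen. Other settings for promoters, TCF/LEF motifs and gene lists were not run, since they need mm9 annotation. No paired analysis was possible because there was 1 library per population.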
